A study of Mus musculus with 9 samples.

Results

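The HOX genes of the fetal mouse gonad were read across 3 comparisons of control ovary, control testis and testis with Sox9 deleted. Members were all mouse genes named Hoxa, Hoxb, Hoxc or Hoxd followed by digits only, matched from the Ensembl gene identifier, so antisense transcripts were left out. The rule gave 39 genes, of which 23 were measured among the 15300 genes tested. The 16 others had no row in the tables used here and are not analysed.

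Gonads were dissected free of the mesonephros, the embryonic kidney beside them, from C57BL/6 embryos at E13.5, a stage counted in days after conception, and 9 RNA sequencing samples fell into 3 groups of 3. XX-WT was ovary and XY-WT was testis, both from controls with floxed Sox9 alleles and no Cre. XY-KO was testis with the genotype XY AMH-Cre; Sox9flox/flox, in which a promoter active in Sertoli cells, the supporting cells of the testis, drives the Cre recombinase, so other cell types of that testis keep the gene. Whether each sample is a single fetus or a pool is not stated in the labels, so p-values measure the spread between these samples.

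HOX genes encode transcription factors with a DNA-binding homeodomain. They lie in 4 clusters, HoxA to HoxD, and each gene carries a number for its paralog group. Low numbers are transcribed towards the head and high numbers towards the tail of the embryo, in the order of the genes on the chromosome. The gonad forms from trunk mesoderm on the ventral side of the mesonephros, and HOX proteins bind DNA with partners of the PBX and MEIS families.

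Of the HOX genes that were lower in ovary than in testis, all 4 lay in the HoxD cluster on chromosome 2. The sequence upstream of these 4 genes is shown because they lie in 1 cluster and differed in the same direction. The windows come from RefSeq on GRCm38.p6, all on the plus strand and written 5′ to 3′, and end before the first annotated transcript start. They are chr2:74711743-74711926 for Hoxd3, chr2:74704365-74704614 for Hoxd8, chr2:74697513-74697726 for Hoxd9 and chr2:74691641-74691890 for Hoxd10. Capitals mark every match to 6 motifs searched on both strands.
Hoxd3: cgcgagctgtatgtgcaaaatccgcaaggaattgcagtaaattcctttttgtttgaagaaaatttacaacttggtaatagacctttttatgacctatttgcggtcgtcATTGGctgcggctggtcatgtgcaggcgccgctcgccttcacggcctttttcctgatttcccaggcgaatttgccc
Hoxd8: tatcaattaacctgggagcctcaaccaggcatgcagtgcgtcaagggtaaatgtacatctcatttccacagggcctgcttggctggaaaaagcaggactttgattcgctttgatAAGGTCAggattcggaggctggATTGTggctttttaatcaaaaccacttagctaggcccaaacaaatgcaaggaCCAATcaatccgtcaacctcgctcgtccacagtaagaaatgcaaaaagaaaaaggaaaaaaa
Hoxd9: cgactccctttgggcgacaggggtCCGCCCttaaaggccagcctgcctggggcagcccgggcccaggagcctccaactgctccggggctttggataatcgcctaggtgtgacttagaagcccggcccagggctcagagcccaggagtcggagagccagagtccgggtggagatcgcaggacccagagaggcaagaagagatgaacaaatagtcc
Hoxd10: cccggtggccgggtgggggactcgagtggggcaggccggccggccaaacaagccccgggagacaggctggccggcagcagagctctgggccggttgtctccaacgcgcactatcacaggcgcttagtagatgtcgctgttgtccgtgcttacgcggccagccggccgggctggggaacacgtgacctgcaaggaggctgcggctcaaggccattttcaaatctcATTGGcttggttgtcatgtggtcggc

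The motifs were the SOX core ACAAT, a PBX-HOX composite TGATNNAT, the NR5A1 half-site AAGGTCA, the GC box GGGCGG, the CCAAT box CCAAT and the TATA box TATAAA. No motif of this set is contained in another, and no matches overlapped in the windows printed. Over 32851 RefSeq windows, each searched over the 250 bases upstream of its start, the SOX core was present in 27.7%, the composite in 7.68%, the half-site in 4.08%, the GC box in 32.7%, the CCAAT box in 33.8% and the TATA box in 12.4%. Among the 4 windows printed, only that of Hoxd8 held the SOX core, on the reverse strand, and the half-site. The SOX core was present in 1 of 7 HoxD windows and 5 of 16 windows of 14 measured HOX genes. A match is a description of letters and not a binding site.

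HOX transcripts were mostly low in these gonads. A level is the CPM (read counts scaled by library size, averaged over groups on the log2 scale) divided by exon length in kilobases, since longer genes collect more reads. The median over the 23 HOX genes was -0.18 in log2 CPM per kb, against 1.28 over all genes with a length, and 4 of 23 reached the median expression of all genes before that division. Hoxd9 was the highest at 12.2 CPM per kb, followed by Hoxd8 at 9.64, Hoxc8 at 6.32, Hoxc6 at 5.39 and Hoxd10 at 4.27. Hoxb5 at 0.280 and Hoxa10 at 0.276 were the lowest by this mean over groups. Within groups the lowest was Hoxb5 in XY-WT at 0.122, Hoxa9 in XY-KO at 0.246 and Hoxa10 in XX-WT at 0.255. The order near the top also differed between ovary and testis. In XY-WT, Hoxd8 stood above Hoxc8 by 1.19 in log2 CPM per kb (SE 0.190), with 12.98 against 5.70 CPM per kb. In XX-WT, Hoxd8 stood at 5.75 CPM per kb and Hoxc8 at 7.41, a log2 difference of -0.37 (SE 0.188) whose 95% interval includes 0. That difference depends on the length used. With the longest transcript in place of all exons, the mean of Hoxc8 rose from 2.66 to 3.01 log2 CPM per kb. That of Hoxd8 rose from 3.27 to 3.33, so the gap in XX-WT widened. Most neighbours in the order were not separated: of 22 neighbouring pairs, the 95% interval of the difference left out 0 for 3 in XY-WT, 4 in XY-KO and 9 in XX-WT. Hoxd9 and Hoxd8 in XY-WT, at a log2 difference of 0.31 (SE 0.147), were among the pairs not separated.

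The measured genes came from paralog groups 2 to 11. All members of paralog groups 3, 5, 9 and 10 were measured. Groups 1, 12 and 13 had none of 3, 2 and 4 members. Of group 11, Hoxd11 was measured. The rule that kept genes in the tables is not given in the sources used here. In HoxA, 6 of 11 genes were measured, with Hoxa5 the highest per length and Hoxa10 the lowest. In HoxB 5 of 10 were measured, and of those never called in a comparison Hoxb6 was the highest per length and Hoxb4 the lowest. The highest places depend on the length used. With the longest transcript, Hoxa7 (0.08 log2 CPM per kb) stood above Hoxa5 (-0.18) and Hoxb3 (-0.21) above Hoxb6 (-0.40). In HoxC, Hoxc6 (3.04) then stood above Hoxc8 (3.01). HoxC had 6 of 9 measured and HoxD 6 of 9. Summed per kb of exons, HoxD made up 61.1% of HOX transcripts in XY-WT, 56.9% in XY-KO and 38.6% in XX-WT. The HoxC share was 29.0% in XY-WT, 33.5% in XY-KO and 45.6% in XX-WT.

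**Figure D1:**
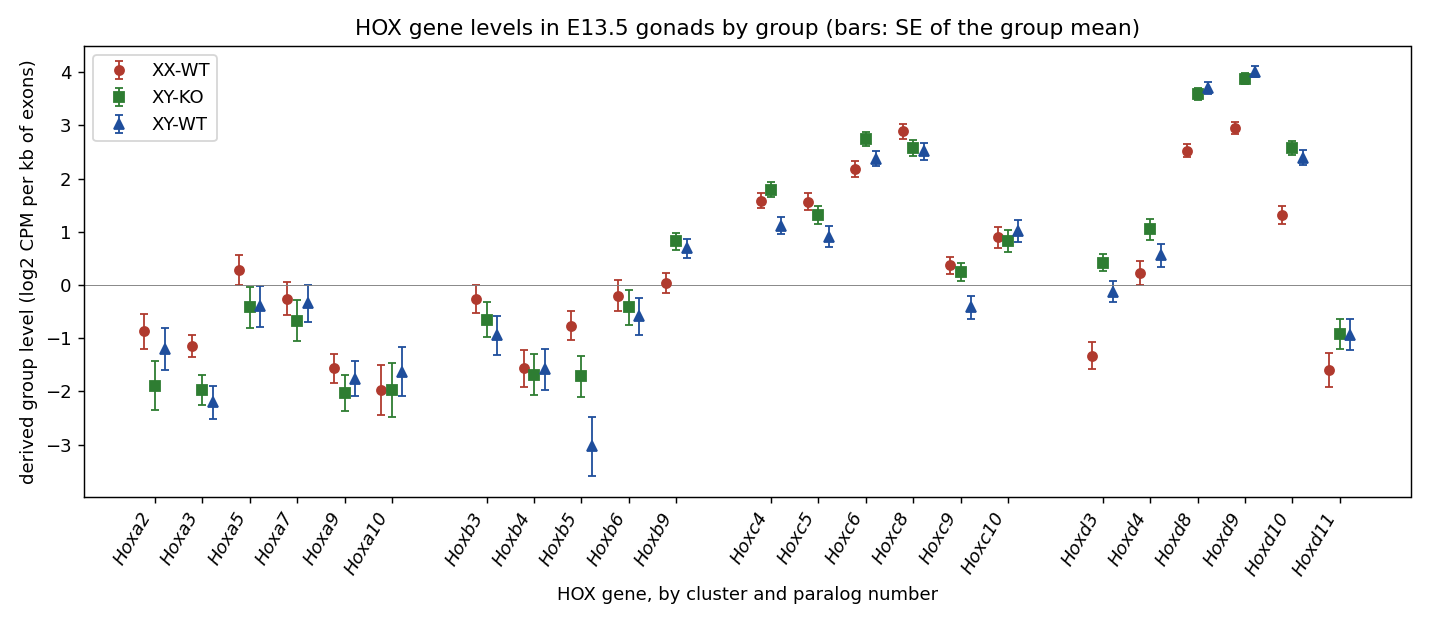
Derived group levels of the 23 measured HOX genes in log2 CPM per kb of exons, ordered by cluster and paralog number; symbols are the 3 groups and bars the SE of the group mean, with 3 samples in each. In Hoxd3, Hoxd8, Hoxd9 and Hoxd10 the XX-WT level lies below XY-WT and XY-KO.

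The labels were checked on Sox9 before the comparisons. Sox9, the gene deleted in XY-KO, was 6.78-fold lower in XY-KO than in XY-WT (95% interval 5.26 to 8.75, adjusted p 8.93e-07), computed from the authors' deposited table. Of 6 Sertoli markers 6 were lower in XX-WT than in XY-WT, and of 6 pre-granulosa markers 6 were higher, so the tissues carried the markers of their labels. The labels give a nominal 50000000 reads per sample, and the reads counted in each library are not known here.

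The comparison of XX-WT with XY-WT asks how HOX expression differs between ovary and testis. Lower genes in the ovary were HoxD genes, 4 of the 6 measured. By the authors' limma test, 4 of the 23 measured HOX genes fell and 2 rose in XX-WT at an adjusted p under 0.05, beside 12.4% and 10.9% of all genes tested. That is 26.1% of members against a background of 23.3%, so the count of all members is near the background. The 4 that fell are Hoxd3, Hoxd8, Hoxd9 and Hoxd10, and the 2 that rose are Hoxb5 and Hoxc9.

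Hoxd8, a central HoxD gene (ENSMUSG00000027102, chromosome 2, 74704615 to 74707933), was 35.6 CPM in XY-WT, 32.9 CPM in XY-KO and 15.8 CPM in XX-WT, levels derived from the group fit because no value per sample was used here. For Hoxd8, the authors' deposited table gave a log2 fold change of -1.18 in XX-WT against XY-WT with an adjusted p of 7.94e-05 (SE 0.165), a level 2.26-fold lower (95% interval 1.77 to 2.88). Only the ovary group was low, with both testis groups at a similar derived level.

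Hoxd9 (chromosome 2, 74697727 to 74700208), a gene of the posterior paralog groups that lies next to Hoxd8, had 34.4 CPM in XY-WT, 31.4 CPM in XY-KO and 16.5 CPM in XX-WT. For Hoxd9, the authors' deposited table gave -1.06 with an adjusted p of 6.52e-05 (SE 0.147), a level 2.09-fold lower (95% interval 1.68 to 2.59). After a fitted trend on GC content and gene length was taken out, Hoxd9 stood at -0.70 and was still called. Its neighbour Hoxd10 (chromosome 2, 74691924 to 74695105) had 9.53 CPM in XY-WT, 10.8 CPM in XY-KO and 4.52 CPM in XX-WT. For Hoxd10, the authors' deposited table gave -1.07 with an adjusted p of 0.00248 (SE 0.225), a level 2.11-fold lower (95% interval 1.51 to 2.94).

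Hoxd3 (chromosome 2, 74711927 to 74748442), an anterior gene towards the other end of the cluster, had 3.85 CPM in XY-WT, 5.61 CPM in XY-KO and 1.67 CPM in XX-WT. For Hoxd3, the authors' deposited table gave -1.20 with an adjusted p of 0.0114 (SE 0.315), a level 2.30-fold lower (95% interval 1.44 to 3.66). Its exons overlap those of Hoxd4, Gm28230, Haglr and Hoxd3os1 over 62.8% of their length, so reads there cannot be given to 1 gene with certainty. Hoxd8 and Hoxd9 share no exon with another gene.

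The remaining HoxD members did not pass the test, and the authors' deposited table put Hoxd4 at -0.34 (adjusted p 0.478) and Hoxd11 at -0.66 (adjusted p 0.299). All 6 HoxD genes were therefore below 0, with a median of -1.07, against 0.004 for all genes tested. In HoxA, HoxB and HoxC the medians were 0.27, 0.39 and 0.42.

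Hoxb5 and Hoxc9 rose in the ovary. Hoxb5 (chromosome 11, 96303336 to 96306121), a central HoxB gene, was 1.64 CPM in XX-WT, 0.847 CPM in XY-KO and 0.340 CPM in XY-WT. For Hoxb5, the authors' deposited table gave 2.27 with an adjusted p of 0.0148 (SE 0.622), 4.83-fold with a 95% interval of 1.93 to 12.1. Hoxc9 (chromosome 15, 102976439 to 102985099), a posterior gene, was 3.14 CPM in XX-WT, 2.88 CPM in XY-KO and 1.82 CPM in XY-WT. For Hoxc9, the authors' deposited table gave 0.79 with an adjusted p of 0.0414 (SE 0.263), 1.73-fold with a 95% interval of 1.17 to 2.54. Both are low genes, and Hoxc9 was no longer called when p-values were adjusted jointly over all 3 comparisons (adjusted p 0.0576).

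Within paralog group 9, Hoxd9 fell and Hoxc9 rose in the ovary, while Hoxa9 and Hoxb9 were not called. For these genes, the authors' deposited table put Hoxd9 at -1.06, Hoxb9 at -0.65 (SE 0.258, adjusted p 0.0808), Hoxa9 at 0.20 (adjusted p 0.772) and Hoxc9 at 0.79. Their 27-base stretches for the DNA-recognition helix of the homeodomain were read from GENCODE M21 transcripts on GRCm38. They are shown because these paralogs differed in direction. The bases that differ between the stretches shown do not change the encoded amino acids. Capitals mark bases that differ from the most frequent base over the 39 genes.
Hoxa9: tggttccagaaccgCagGatgaaAATg
Hoxb9: tggttTcagaaccggCgGatgaaAATg
Hoxc9: tggttTcagaaccggagGatgaagATg
Hoxd9: tggttccagaaccgTagGatgaaAATg

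The longest run of bases shared exactly by any pair of HOX genes whose chromosome spans do not overlap was 52, against reads of 150 nt. In 5 paralog groups (3, 4, 8, 9 and 10), a HoxD gene and at least 1 other member were measured. In each of these, the HoxD gene had the lowest log2 fold change of its group. Not all were separated from the next member, as with Hoxd4 at -0.34 (SE 0.314) and Hoxb4 at 0.02 (SE 0.509). Hoxd3 and Hoxd4 share exons, so groups 3 and 4 are not separate counts. By position along the axis, the anterior groups 1 to 3 (4 genes) had a median log2 fold change of 0.51, the central groups 4 to 8 (11 genes) of 0.38 and the posterior groups 9 to 13 (8 genes) of -0.50. Without the HoxD genes these medians were 0.68 (3 genes), 0.39 (9 genes) and -0.12 (5 genes). The HoxD genes were below 0 in all 3 classes.

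Other members did not pass the test in this comparison. Hoxa3 had the largest value of HoxA, which the authors' deposited table put at 1.05 (adjusted p 0.0539), and Hoxb3 stood at 0.68 (adjusted p 0.314). In HoxC, the authors' deposited table put Hoxc5 at 0.66 (adjusted p 0.0709), Hoxc4 at 0.47 (adjusted p 0.137), Hoxc8, its highest gene per length among those not called, at 0.38 (adjusted p 0.216), and Hoxc10, its lowest, at -0.12 (adjusted p 0.797).

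**Figure D2:**
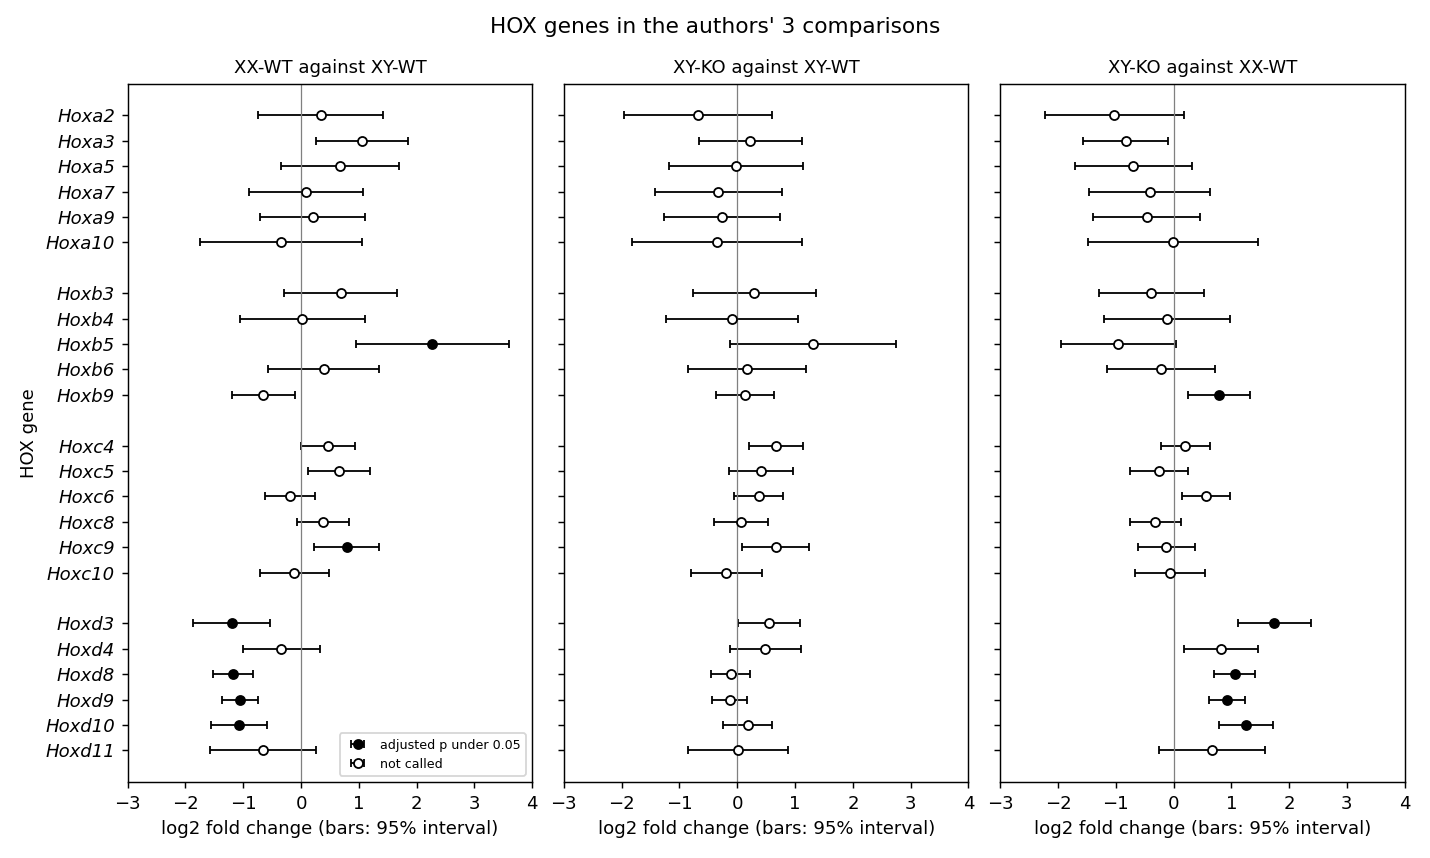
Log2 fold changes of the 23 measured HOX genes in the 3 comparisons with 95% intervals; filled points have an adjusted p under 0.05. The left and right panels show 4 HoxD genes away from 0 in opposite directions, and the middle panel, XY-KO against XY-WT, has no filled point.

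Cell types that differ between ovary and testis moved beside these genes. In bulk samples, fewer cells of a type and less RNA per cell cannot be told apart. Of 8 interstitial and stromal markers, 5 fell in XX-WT and none rose, and their summed level was 678 CPM in XX-WT and 1251 CPM in both XY-WT and XY-KO. Among them, the authors' deposited table put Tcf21, a transcription factor of stromal progenitors, at -1.86 and Wnt5a, a secreted signal, at -1.51. All 4 measured fetal Leydig markers fell in XX-WT, with sums of 21.3 CPM in XX-WT, 602 CPM in XY-KO and 612 CPM in XY-WT, and the defining marker Insl3 had no row. The part of these cells in the HoxD result was not tested.

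Most measured markers of the mesonephros were higher in XX-WT than in XY-WT, as Hoxb5 and Hoxc9 were. Of 10 mesonephric markers, 7 were measured, with 6 higher and 1 lower in XX-WT, and the summed level was 229 CPM in XX-WT, 94.5 CPM in XY-KO and 72.9 CPM in XY-WT. Calb1, a calcium-binding protein of the duct, stood in the authors' deposited table at 5.75 and Emx2, which the gonad itself also expresses, at 1.71, while Wnt9b and Cdh16 were among the markers with no row. Emx2 made up most of that sum, and without it the sum was 38.98 CPM in XX-WT, 12.9 CPM in XY-KO and 14.9 CPM in XY-WT. Lhx1, the 1 marker lower in XX-WT (-1.905), had the highest mean of these 6, at 2.60 log2 CPM. In XY-KO against XY-WT none of the 7 was called, and their directions were mixed. The authors' deposited table put Lhx1 at -0.46, Pax2 at -1.445 and Ret at -2.47 there. It put Pax8 at 0.69, Gata3 at 0.38, Calb1 at 1.37 and Emx2 at 0.49. Of 5 measured coelomic epithelium markers, 3 rose, with sums of 122 CPM in XX-WT, 86.5 CPM in XY-KO and 81.6 CPM in XY-WT. Of 6 skeletal muscle markers only Myh3, a myosin heavy chain of embryonic muscle, was measured, with 2.77 CPM in XX-WT, 1.82 CPM in XY-KO and 0.245 CPM in XY-WT. For Myh3, the authors' deposited table gave 3.50 in XX-WT (SE 0.942, adjusted p 0.0132) and 2.90 in XY-KO (SE 0.978, adjusted p 0.134), both against XY-WT. Its groups stood in the same order as those of Hoxb5 and Hoxc9, and the muscle regulators Myod1 and Myog had no row. The part of all these markers in the values of Hoxb5 and Hoxc9 was not tested.

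The comparison of XY-KO with XY-WT asks which HOX genes respond to the loss of Sox9 in Sertoli cells. No HOX gene was called: 0 of 23 passed limma's adjusted p, beside 2.27% of all genes (0.699% higher and 1.57% lower), and 3 of 23 had an unadjusted p under 0.05, beside 18.9% of all genes. Those 3 were Hoxc4, Hoxc9 and Hoxd3, all above 0. The median of HoxD was 0.10, of HoxC 0.39, of HoxB 0.17 and of HoxA -0.29, against -0.011 for all genes.

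For Hoxd8, Hoxd9 and Hoxd10, which were low in the ovary, the intervals were narrow enough to bound a change in the whole gonad. They do not bound a change within the Sertoli cells, where Sox9 was deleted. For Hoxd8, the authors' deposited table gave -0.11 with an adjusted p of 0.740 (SE 0.156) and a 95% interval of -0.45 to 0.22. For Hoxd9, the authors' deposited table gave -0.13 (SE 0.139, adjusted p 0.646) and an interval of -0.43 to 0.16, and for Hoxd10 it gave 0.18 (SE 0.20, adjusted p 0.667) and an interval of -0.24 to 0.60. These 3 are among 9 of the 23 HOX genes whose interval lay within a 2-fold change either way. The signs of Hoxd8 and Hoxd9 turned with the GC and length trend taken out, to 0.11 (95% interval -0.22 to 0.45) and 0.26 (95% interval -0.04 to 0.56). Neither was called there, and 8 HOX genes then had an interval within 2-fold. For Hoxd3, the authors' deposited table gave 0.54 with an adjusted p of 0.258 (SE 0.252) and an interval of 0.01 to 1.08, which reaches past 2-fold. With the trend taken out, Hoxd3 stood at 0.80 (95% interval 0.27 to 1.34). Hoxd4, Hoxb5, Hoxc4, Hoxc6 and Hoxc9 also had intervals above 0 in that setting, and no HOX gene was called there.

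The other 2 members with an unadjusted p under 0.05 were HoxC genes. Hoxc4, a central gene, had 8.87 CPM in XY-KO, 7.71 CPM in XX-WT and 5.57 CPM in XY-WT. For Hoxc4, the authors' deposited table gave 0.67 with an adjusted p of 0.120 (SE 0.216), and the gene was called when p-values were adjusted jointly over all 3 comparisons. For Hoxc9, the authors' deposited table gave 0.66 (SE 0.27, adjusted p 0.201). Hoxb5 had the largest value of the 23, which the authors' deposited table put at 1.32 (SE 0.675, adjusted p 0.305), with a 95% interval of -0.12 to 2.75. Among marker lists, 5 of 6 Sertoli markers fell in XY-KO, with sums of 145 CPM in XY-KO and 392 CPM in XY-WT, and of the interstitial markers only Maf was called, which the authors' deposited table put at 0.50.

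The comparison of XY-KO with XX-WT sets the Sox9-deleted testis against the ovary. It shares the XX-WT samples with the first comparison and the XY-KO samples with the second. Of 23 HOX genes 5 were higher in XY-KO and none lower, beside 9.16% higher, 9.11% lower and 18.3% in either direction over all genes. The 5 were Hoxb9 and the 4 HoxD genes that were low in the ovary. Their log2 fold changes in the authors' deposited table were 1.75 for Hoxd3 (SE 0.30, adjusted p 0.000596), 1.25 for Hoxd10 (SE 0.22, adjusted p 0.000714), 1.06 for Hoxd8 (SE 0.17, adjusted p 0.000276) and 0.93 for Hoxd9 (SE 0.15, adjusted p 0.000311). As folds they were 3.35 for Hoxd3 (95% interval 2.15 to 5.21), 2.39 for Hoxd10, 2.09 for Hoxd8 and 1.90 for Hoxd9.

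Hoxb9 (chromosome 11, 96271457 to 96276595), a posterior HoxB gene, had 4.55 CPM in XY-KO, 4.15 CPM in XY-WT and 2.64 CPM in XX-WT. For Hoxb9, the authors' deposited table gave 0.79 in XY-KO against XX-WT with an adjusted p of 0.0393 (SE 0.252), 1.73-fold with an interval of 1.19 to 2.51. Against XY-WT, the authors' deposited table gave XY-KO a value of 0.14 for this gene (SE 0.24, adjusted p 0.803). For the genes that rose in the ovary, the authors' deposited table gave Hoxb5 -0.96 (SE 0.47, adjusted p 0.190) and Hoxc9 -0.12 (SE 0.23, adjusted p 0.774) in XY-KO against XX-WT. Hoxd4 and Hoxd11 did not pass in this comparison either, where the authors' deposited table put them at 0.82 (adjusted p 0.0708) and 0.67 (adjusted p 0.333), both above 0.

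Genes around the clusters were set beside the members within 1 Mb, a window chosen after the values were seen. Over all 4 clusters, 9 of 89 measured flanking genes were higher and 8 lower in XX-WT than in XY-WT. Among all genes tested, 10.9% were higher and 12.4% lower. Around HoxD, 10 flanking genes were measured, with a median log2 fold change of 0.11 in XX-WT against XY-WT, and 1 was called. For that gene, the long noncoding RNA 2600014E21Rik, the authors' deposited table gave -2.01 with an adjusted p of 3.00e-06. It was named after its value was seen. Within HoxD, 4 other genes were measured, and none was called in XX-WT against XY-WT. Their values lay between -1.01 and -0.40. All 4 were higher in XY-KO than in XX-WT, and the authors' deposited table gave Hoxd3os1 1.07, Haglr 1.04, Gm14396 1.39 and Gm28230 1.40. Haglr, Gm28230 and Hoxd3os1 share exons with HoxD genes, so these are not separate measurements.

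**Figure D3:**
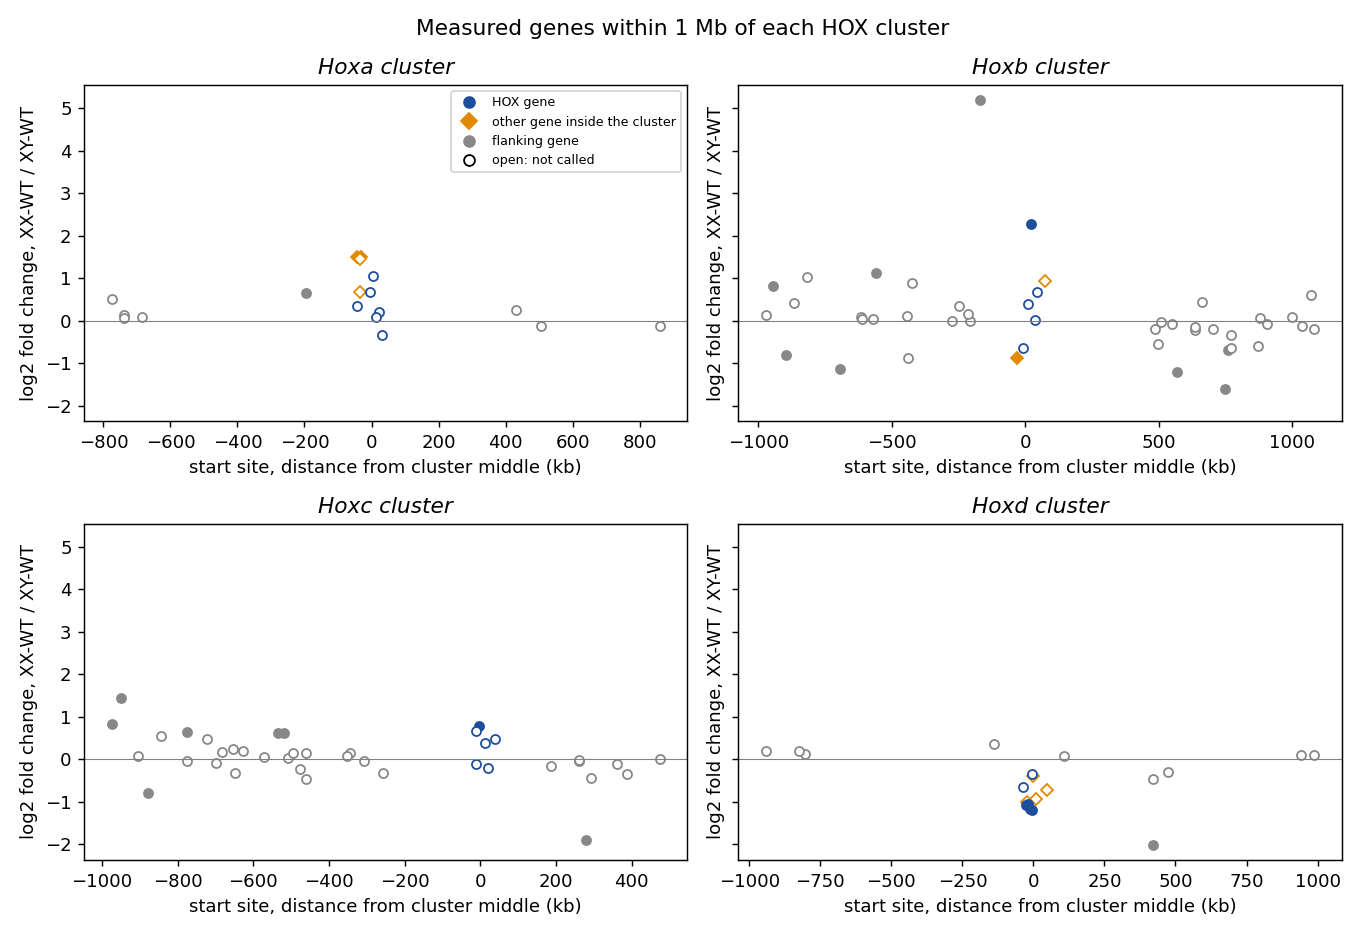
Log2 fold change of XX-WT against XY-WT for all measured genes within 1 Mb of each HOX cluster, by distance in kb of their start from the cluster's middle; filled symbols have an adjusted p under 0.05. HoxD genes and the other genes inside that cluster all lie between -1.20 and -0.34, while the flanking genes of HoxD, 2600014E21Rik at -2.01 apart, are open symbols.

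HOX cofactors and other genes of the pathway were read from lists. Of 11 TALE homeobox cofactor genes 10 were measured, with 2 higher and 2 lower in XX-WT than in XY-WT. Over all genes tested, 10.9% were higher and 12.4% lower in that comparison. No TALE gene was called in XY-KO against XY-WT, beside 2.27% of all genes, and 2 had an unadjusted limma p under 0.05, beside 18.9%. The median of the list was 0.13 in XX-WT against XY-WT, against 0.004 over all genes. For Pbx3, a DNA-binding partner of HOX proteins, the authors' deposited table gave 1.18 in XX-WT against XY-WT with an adjusted p of 0.000116 (SE 0.17). Its levels were 69.5 CPM in XX-WT, 33.5 CPM in XY-KO and 30.8 CPM in XY-WT. For Pknox2, a relative of the MEIS proteins, the authors' deposited table gave -1.001 (SE 0.19, adjusted p 0.00125), and for Tgif1, a repressor of the same family, -0.68 (adjusted p 0.00408). Pknox2 had 17.8 CPM in XX-WT, 38.6 CPM in XY-KO and 35.7 CPM in XY-WT, so its testis groups also stood together above the ovary.

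Retinoic acid, which induces anterior HOX genes in embryos, acts through the RAR and RXR receptors, of which 5 of 6 were measured. Rara, a receptor for retinoic acid, was 33.8 CPM in XY-WT, 18.5 CPM in XY-KO and 20.2 CPM in XX-WT. Against XY-WT, the authors' deposited table gave Rara -0.75 in XX-WT (adjusted p 0.00975) and -0.87 in XY-KO (adjusted p 0.0278). None of the other 4 measured receptors was called in either comparison. For Rarb, itself induced by retinoic acid, the authors' deposited table gave 1.18 in XX-WT (adjusted p 0.0559), and for Rxra, a partner of the RAR receptors, -0.40 (adjusted p 0.169).

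**Figure D4:**
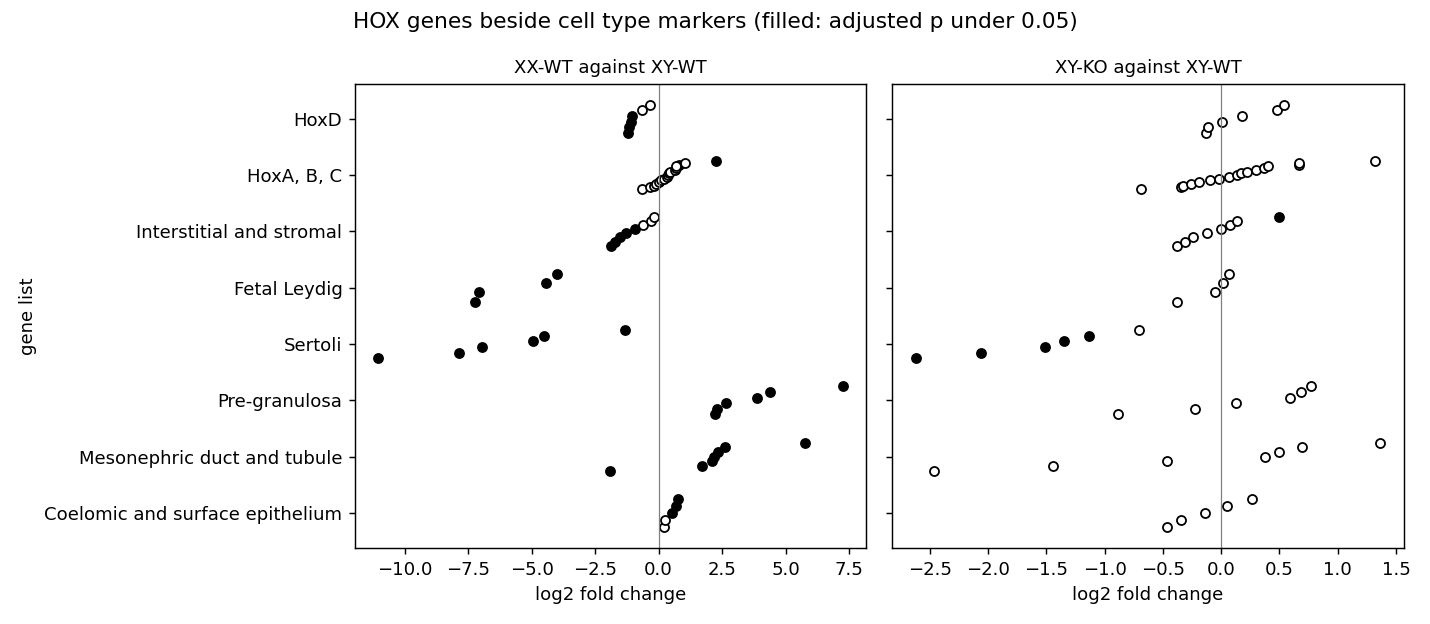
Log2 fold changes of HoxD genes, the other HOX genes and 6 cell type marker lists in XX-WT against XY-WT (left) and XY-KO against XY-WT (right), with different scales; each point is a gene and filled points have an adjusted p under 0.05. HoxD and the interstitial, fetal Leydig and Sertoli markers lie below 0 on the left, and no HOX point is filled on the right.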

How the data were processed

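Libraries from SPIA-amplified RNA were read as 150 nt pairs, per the labels' protocols. The submitters' processing notes list limma 3.24.0, HTSeq 0.6.1p1, TopHat2 2.0.8, Trimmomatic 0.30 and the build GRCm38; the strand setting, gene filter and sample weights are not given in the sources used here. The authors deposited 3 tables of 15300 genes. Per the file headers they hold the log2 fold change and mean log2 expression (read as log2 CPM), the limma t and log-odds scores, and the p-value and adjusted p-value. SE was the log2 fold change over t, with 95% intervals at 15.27 degrees of freedom. Group levels came from the mean and fold changes at equal group weight, and lengths and exons from GENCODE M21. A gene was called at limma's Benjamini-Hochberg adjusted p under 0.05 over all genes. Members, companion lists and markers were chosen with earlier results of these data known. Every called HOX gene was named, with the highest, lowest and most changed of the others in each cluster, and the 3 members with the smallest adjusted p of each companion list; some listed genes are not reported here. Alternatives were stricter limits, median expression, other adjustments, centring, and removal of a GC and length trend of degree 3. The scripts were tested on simulated data. The tools were matplotlib 3.10.9, statsmodels 0.14.6, scipy 1.17.1, pandas 2.3.3, numpy 2.4.6 and Python 3.11.15.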

Additional observations from a re-analysis of the deposited data

How the results depend on the processing

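No paired analysis was possible because the values used are group comparisons without values per sample; for the same reason no replicate was left out. The 2 HOX genes higher in XX-WT than in XY-WT became 0 at an adjusted p under 0.01, 0 among the 4 HOX genes that reach median expression and 0 by Bonferroni. They became 1 with a 2-fold limit, 1 with joint adjustment of all 3 comparisons, and 4 once a trend with GC content and length was taken out, which added Hoxa3 and Hoxc5. The 4 lower became 3 at an adjusted p under 0.01, without Hoxd3, and 2 at median expression and 2 by Bonferroni, in both of these Hoxd8 and Hoxd9. In XY-KO against XY-WT the count of 0 higher became 1, Hoxc4, with joint adjustment. The 5 higher in XY-KO than in XX-WT became 4 at an adjusted p under 0.01, without Hoxb9, 3 with a 2-fold limit, 2 at median expression, 0 by Bonferroni and 6 with the trend taken out, which added Hoxc6. No HOX gene changed direction in a comparison in which it was called. In XY-KO against XY-WT, where neither was called, taking out the trend turned Hoxd8 from -0.11 to 0.11 and Hoxd9 from -0.13 to 0.26. Over all genes of XY-KO against XY-WT, 107 higher and 240 lower became 116 and 142 after removal of that trend. The restriction to median expression left 4 HOX genes to test; for the other changes the cause was not tested. With the longest transcript in place of the exon union, 9 of 23 HOX levels per kb moved by more than their SE. The reads counted per sample are not known, and SEs of the HOX genes in XY-KO against XY-WT ran from 0.139 to 0.689.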

Other observations

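Chromatin regulators that act on HOX clusters in embryos were also read. Of 24 Polycomb genes, which keep HOX genes silent, 3 were higher and 2 lower in XX-WT than in XY-WT. Over all genes tested, 10.9% were higher and 12.4% lower in that comparison. No Polycomb gene was called in XY-KO against XY-WT, beside 2.27% of all genes, and 1 had an unadjusted limma p under 0.05, beside 18.9%. In XY-KO against XX-WT, 7 were lower and none higher, beside 9.11% and 9.16% of all genes. For Phf19, an accessory subunit of the Polycomb complex that methylates histone H3, the authors' deposited table gave 2.06 in XX-WT with an adjusted p of 7.80e-06 (SE 0.23). Its levels were 12.3 CPM in XX-WT, 2.19 CPM in XY-KO and 2.93 CPM in XY-WT. The authors' deposited table gave Pcgf5 1.29 (adjusted p 0.000745) and Kdm2b, which recruits Polycomb to CpG islands, 0.52 (adjusted p 0.0139).

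Of 14 Trithorax genes, which keep HOX genes active, 2 were higher and 1 lower in XX-WT than in XY-WT. Over all genes tested, 10.9% were higher and 12.4% lower there. No Trithorax gene was called in XY-KO against XY-WT, beside 2.27% of all genes, and 2 had an unadjusted limma p under 0.05, beside 18.9%. For Kdm6a, an X-linked histone demethylase that escapes X inactivation, the authors' deposited table gave 0.96 in XX-WT (SE 0.11, adjusted p 9.59e-06). For 2 other members, the authors' deposited table gave Kmt2c 0.53 (adjusted p 0.0117) and Setd1b -0.53 (adjusted p 0.0121).

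Of 9 HOX-related homeobox genes outside the clusters' HOX names, only Cdx2 was measured. For Cdx2, a regulator of HOX genes in the embryo, the authors' deposited table gave 5.64 in XX-WT against XY-WT (SE 0.64, adjusted p 8.96e-06) and -0.28 in XY-KO against XY-WT (adjusted p 0.894). Its derived level was 2.15 CPM in XX-WT, 0.0356 CPM in XY-KO and 0.0431 CPM in XY-WT, so low in the XY groups that the fold depends on the offset used before the logs.

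Of 17 genes listed by name as flanking the clusters 15 were measured, with 2 higher in XX-WT and none lower, while the wider window of 1 Mb also held 8 lower genes. Of these, the authors' deposited table put Calcoco2 at 5.18 (adjusted p 1.15e-05) and Skap2 at 0.65 (adjusted p 0.0426), while Snx11 stood at -0.55 (adjusted p 0.121). Near HoxA, Jazf1 was named after its value was seen: the authors' deposited table put it at 1.20 in XY-KO against XY-WT (adjusted p 0.00356). Within HoxA, the authors' deposited table gave Hoxaas2 1.49 (adjusted p 0.0180) and 5730596B20Rik 1.498 (adjusted p 0.0150) in XX-WT, and within HoxB it gave Gm53 -0.89 (adjusted p 0.00809). Hoxaas2 and 5730596B20Rik both share exons with Hoxa3, which stood at 1.05, so reads there cannot be given to 1 gene with certainty.

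Markers of other cell types were present to different degrees. In XX-WT against XY-WT, 3 of 5 germ cell markers were higher, 1 of 4 endothelial markers was higher and 2 were lower, and 1 of 4 measured neural markers was lower.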
